A study of Homo sapiens with 4 samples.

Results

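ABC transporter and P-type ATPase genes were followed in a TT-seq experiment on K562 cells depleted of the elongation factor IWS1. Members were taken by name. The symbols had to begin with ABCA to ABCG or with the ATPase stems ATP1, ATP2, ATP7 to ATP11 or ATP13 in the usual forms of these families, and a symbol with a hyphen was left out. This rule found 34 of the 10147 genes listed, 17 ABC genes and 17 ATPase genes. Of 83 protein-coding RefSeq symbols with such names, the other 49, such as *ABCA1*, *ABCB1* and *ATP2B4*, were not analysed here. All 34 members had a mean of at least 100 scaled reads. The name rule also takes in the ATP1B genes, which are named for the beta subunit of the sodium-potassium pump and do not encode ATPases.

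K562 is an established human leukemia line with erythroid features. In the edited line used here, the endogenous *IWS1* gene encodes IWS1 with an N-terminal dTAG, and both groups carry this tag. The control group was given the solvent DMSO and the dIWS1 group was given 500 nM of dTAG7, the ligand that sends the tagged protein to degradation, both for 1 h, after which cells were labelled for 5 min with 500 µM 4-thiouridine (4sU). Each group has 2 samples labelled as biological replicates, so the comparison asks how RNA synthesis of each gene changes within 1 h of losing IWS1.

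ABC transporters use ATP to move lipids, drugs, metabolites or peptides across membranes, with paired ATP-binding domains as the motor and membrane domains as the path. ABCE and ABCF proteins have the motor but no membrane domains and act on ribosomes. P-type ATPases take a phosphate from ATP onto a conserved aspartate during each cycle. They pump calcium, sodium and potassium or copper, flip phospholipids from one leaflet to the other, or move polyamines and proteins. In erythroid cells, mitochondrial ABC proteins are known for their links to heme formation, and the sodium-potassium and plasma membrane calcium pumps set the ion content of the red cell.

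The deposited means could be split into whole reads for 3 distinct columns. The control column was entered 2 times with identical reads and was counted as 1 sample, and the other 2 columns are dIWS1. These columns held 29832118 control reads and 20684301 and 20886697 dIWS1 reads in genes, and reads were divided by spike-in size factors of 1.01, 0.993 and 0.919. With 1 control column, its spread was taken to be that of the dIWS1 columns. *IWS1* itself had 3684 control reads, and since the tag acts on the protein, its RNA does not check the depletion. All 14 K562 marker genes were listed (129 to 16164 control reads). Of 14 markers of lymphoid, epithelial, myeloid and fibroblast cells, *KRT8*, *KRT18*, *LYZ* and *PTPRCAP* were listed, with 2777, 945, 60 and 16 control reads, and the other 10 were not.

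RNA synthesis of these genes was lower after IWS1 depletion. All 34 members had fewer spike-in scaled reads in both dIWS1 columns than in the control column, as did 92.1% of all genes. The fall passed the test (limma voom, Benjamini-Hochberg adjusted p under 0.05 over 10136 genes) for 24 of the 34 members, or 70.6%, beside 64.5% of all genes. No member was called higher, beside 0.109% of all genes. Limma trend called no member higher either, beside 26 genes in all. At an unadjusted p under 0.05 none was higher, and no share of all genes at that level is given. The median log2 ratio (dIWS1/control) was −0.45 over the members and −0.42 over all genes. The middle of the members, from the lower to the upper quartile, ran from −0.62 to −0.25, and that of all genes from −0.60 to −0.26. The share called and the median of the members were thus near the background. These directions rest on the spike-in scaling. Scaled by total reads in genes instead, 6 members were called lower and 8 higher, and over all genes 1062 lower and 1471 higher.

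**Figure D1:**
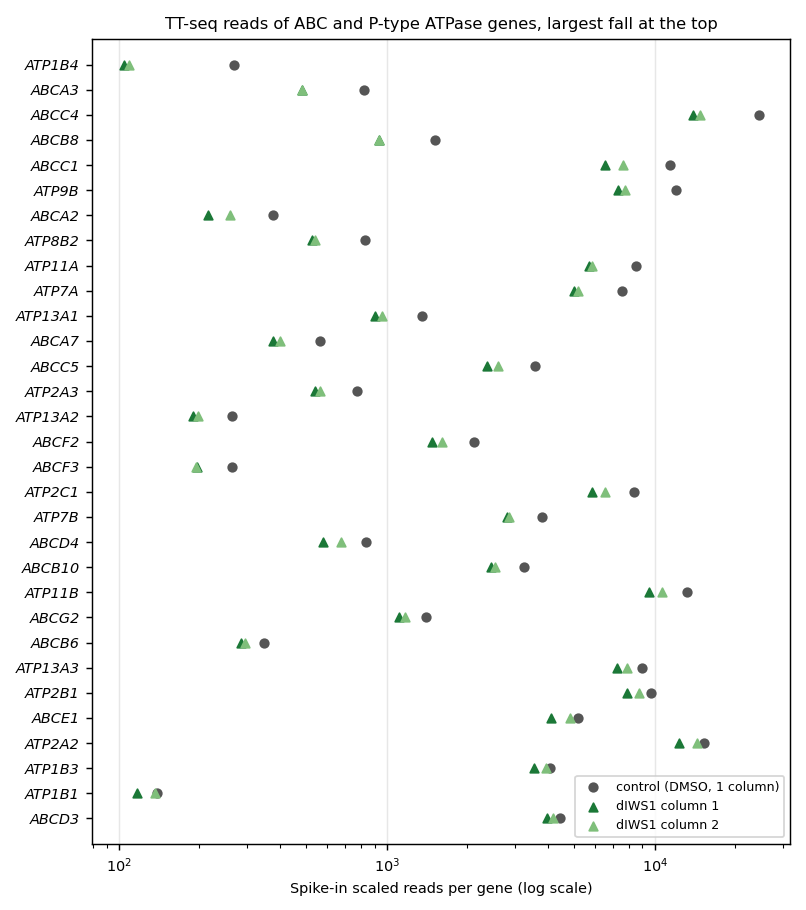
Spike-in scaled reads per gene (log axis) of 31 of the 34 members in the control column (grey circles) and in the 2 dIWS1 columns (green triangles), 1 row per gene with the largest fall at the top. Both dIWS1 points lie to the left of the control point in every row, by 60.3% on average for *ATP1B4* and by 8.06% for *ABCD3*.

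*ATP1B4* stood lowest. It encodes a beta subunit relative that in placental mammals is known from the nuclear envelope of muscle. It had 269 scaled reads in the control column and 105 and 109 in the dIWS1 columns. The dIWS1 mean of 107 ± 2.86 (SD, n = 2) was 60.3% below the control. The log2 ratio was −1.33 with a standard error (SE) of 0.16 (limma voom adjusted p = 3.94e-14). The gene lies on the plus strand at chrX:120362089-120383237 (GRCh38.p14, RefSeq) and spans 21.1 kb. The transcript that GENCODE marks as canonical has 8 exons. The listed genes on either side are *ZBTB33*, 104 kb before it with a log2 ratio of −0.49, and *LAMP2*, 42.9 kb after it with −0.07.

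At the other end stood *ABCD3*, which encodes a peroxisomal transporter for fatty acids. It had 4421 scaled control reads and 3949 and 4180 in the dIWS1 columns, a log2 ratio of −0.12 (SE 0.15) that did not pass the test (limma voom adjusted p = 0.46). SEs of members ran near 0.15. Apart from *ATP1B4* and *ABCA3*, members next to each other in this order lay closer together than 1 SE, and differences between members were not tested. *ABCG2* was just inside the threshold and *ABCB6* just outside it, with limma voom adjusted p-values of 0.0473 and 0.0870.

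The gene starts at both ends of this order are shown to let their base composition be seen. RefSeq promoter sequences (GRCh38.p14, 250 bases before to 50 after the start) were matched for 28 of the 34 members. The 100 bases in front of the start are printed 5′ to 3′ on the gene's strand for the 3 members with the largest falls that had such a sequence, for the 3 with the smallest, and for *ABCB10*, a mitochondrial transporter known from erythroid cells. These short strings were searched on either strand. One is GATA, the core of sites of the erythroid factor GATA1, which is marked as TATC where it lies on the other strand. One is the TATA box string TATAAA. The third is CACCC, the core of sites of KLF factors such as KLF1, which is marked as GGGTG on the other strand. Capitals mark these strings.
ATP1B4, chrX:120361989-120362088, plus strand: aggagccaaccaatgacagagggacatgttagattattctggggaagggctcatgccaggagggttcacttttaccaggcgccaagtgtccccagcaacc
ABCA3, chr16:2340729-2340828, minus strand: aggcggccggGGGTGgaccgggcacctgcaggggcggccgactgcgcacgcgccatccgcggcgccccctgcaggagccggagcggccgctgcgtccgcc
ABCC4, chr13:95301452-95301551, minus strand: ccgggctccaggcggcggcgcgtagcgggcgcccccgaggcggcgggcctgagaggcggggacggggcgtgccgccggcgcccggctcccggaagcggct
ABCD3, chr1:94418289-94418388, plus strand: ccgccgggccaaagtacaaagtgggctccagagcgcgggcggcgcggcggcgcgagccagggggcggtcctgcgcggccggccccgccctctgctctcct
ATP1B1, chr1:169106590-169106689, plus strand: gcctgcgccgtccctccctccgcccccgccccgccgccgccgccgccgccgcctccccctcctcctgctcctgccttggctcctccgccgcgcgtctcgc
ATP1B3, chr3:141876543-141876642, plus strand: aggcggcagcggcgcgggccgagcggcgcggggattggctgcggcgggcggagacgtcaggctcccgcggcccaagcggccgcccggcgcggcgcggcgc
ABCB10, chr1:229558708-229558807, minus strand: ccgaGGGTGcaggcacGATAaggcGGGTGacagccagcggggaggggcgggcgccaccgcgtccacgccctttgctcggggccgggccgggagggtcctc

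The *ATP1B4* start is the least GC-rich of these 7, with 52.3% GC and 5 CG dinucleotides in its 300 bases. GC-rich starts stood at both ends of the order. *ABCA3* and *ABCC4* had 78.0% and 79.7% GC, and *ABCD3*, *ATP1B1* and *ATP1B3* had 75.0%, 77.0% and 75.0%. The *ABCD3* start used is the first one in the table and lies inside the RefSeq span of the gene. Over the 300 bases, GATA was found in 11 of the 28 member promoters (39.3%), beside 50.5% of all 27305 promoters and 36.7% of the 8021 promoters of listed genes. TATAAA was found in 3 members (10.7%, beside 12.0% and 5.32%) and CACCC in 16 (57.1%, beside 58.9% and 61.8%). The median GC content was 66.7% for members, 65.3% for listed genes and 58.3% for all promoters. These matches are strings in a window and do not show binding.

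Of the 14 ABC genes with membrane domains, 11 were called lower, beside 64.5% of all genes, and none was called relative to the median gene. *ABCB6* and *ABCD3* were among those that were not. The ABCA family exports lipids, and all 3 listed members were called lower (median log2 ratio −0.65), beside 64.5% of all genes. *ABCA3*, which loads surfactant lipid into lamellar bodies in the lung, had the most control reads of the family and the second largest fall of all members. Its scaled reads were 825 in the control column and 483 and 482 in the dIWS1 columns, a log2 ratio of −0.77 (SE 0.13, limma voom adjusted p = 7.70e-08). *ABCA2* and *ABCA7* had log2 ratios of −0.65 and −0.53. The *ABCA2* columns lay apart, with 215 and 261 scaled reads against 375 in the control column.

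The ABCC family holds the multidrug resistance-associated proteins, and all 3 listed members were called lower (median log2 ratio −0.69), beside 64.5% of all genes. *ABCC4* exports cyclic nucleotides and drugs and had more control reads than any other member. It fell from 24422 scaled reads in the control column to 13943 and 14797, a mean of 14370 ± 604 (SD, n = 2) and a log2 ratio of −0.77 (SE 0.14, limma voom adjusted p = 7.44e-07). The gene runs over 282 kb on the minus strand at chr13:95019835-95301451. *ABCC1*, which exports glutathione conjugates, fell from 11378 scaled reads to 6535 and 7580, a log2 ratio of −0.69 (SE 0.15, limma voom adjusted p = 1.76e-05). *ABCC5* had a log2 ratio of −0.52. In each of these 3 genes both dIWS1 columns lay well below the control column.

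The 4 listed ABCB genes encode transporters, most of them known from mitochondria, and 2 of them were called lower, beside 64.5% of all genes. *ABCB8* fell from 1511 scaled reads to 934 and 939, a log2 ratio of −0.69 (SE 0.14, limma voom adjusted p = 5.66e-06). *ABCB10*, which is tied to heme formation in erythroid cells, fell from 3259 to 2442 and 2538, a log2 ratio of −0.39 (SE 0.15, limma voom adjusted p = 0.0173). *ABCB6*, a porphyrin transporter, had −0.25 and was not called. *ABCB6* lies 0.124 kb from its nearest listed neighbour, *ZFAND2B*. With only 43 control reads, *ZFAND2B* had a log2 ratio of −0.37 that was not called (limma voom adjusted p = 0.245). On the other side, *ATG9A* lies 0.422 kb away and was called lower at −0.39 (limma voom adjusted p = 0.00851).

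ABCD proteins bring fatty acids into peroxisomes, apart from ABCD4, which acts on cobalamin in lysosomes. *ABCD4* was called lower, with a log2 ratio of −0.41. *ABCG2*, which exports drugs, urate and porphyrins, was the one ABCG gene listed. It fell from 1401 scaled reads to 1109 and 1168, a log2 ratio of −0.30 (SE 0.14, limma voom adjusted p = 0.0473). That call was lost with limma trend.

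Among the ribosome-acting genes, *ABCE1*, which splits ribosomes after termination, was not called. It had 5169 scaled reads in the control column and 4113 and 4816 in dIWS1, a log2 ratio of −0.21 (SE 0.15, limma voom adjusted p = 0.186). Column 2 was much nearer to the control than column 1. *ABCF2* and *ABCF3* were called lower, with log2 ratios of −0.46 and −0.45. *ABCE1*, *ABCF2* and *ABCB10* have pseudogenes by name (2, 2 and 3), as do *ABCA3*, *ATP1B1*, *ATP1B3* and *ATP7B* (1 each), none of them listed. Only unique alignments were kept, so reads that match such a copy equally well would be lost. The levels of these genes are therefore less certain.

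**Figure D2:**
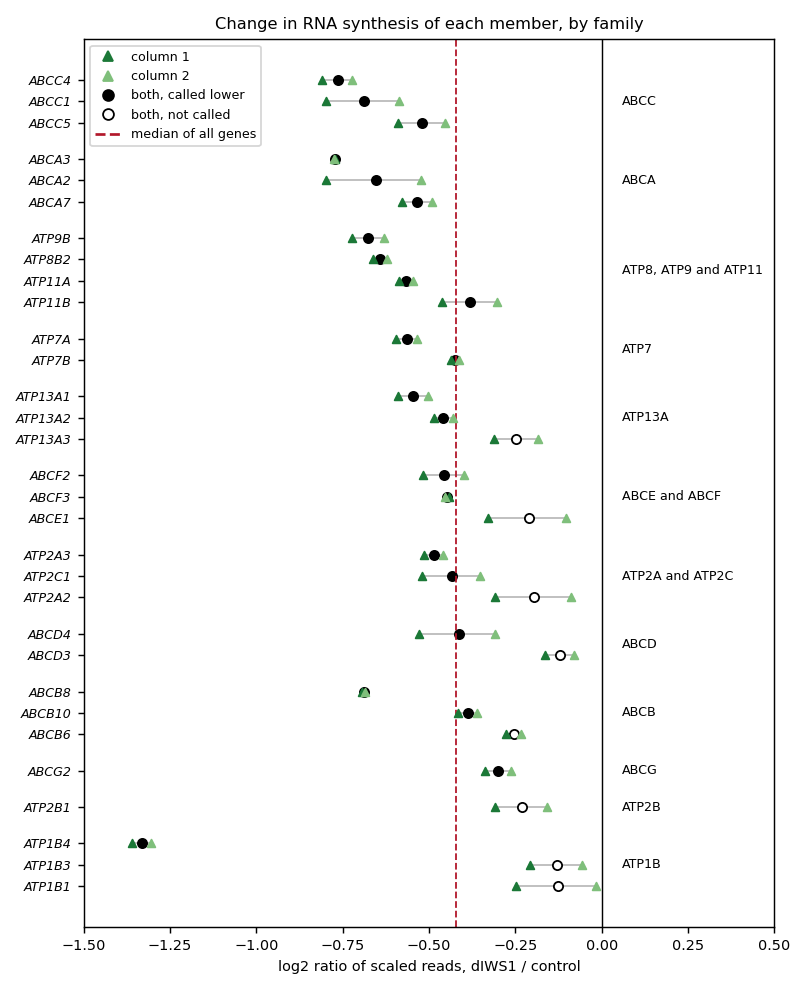
Log2 ratio of scaled reads (dIWS1/control) of 31 of the 34 members by family, with triangles for the 2 dIWS1 columns and circles for both together, filled where called lower by limma voom. The dashed line is the median of all genes (−0.42). The ABCC, ABCA and ATP8, ATP9 and ATP11 families lie mostly to its left, and *ATP1B4* is separate from *ATP1B1* and *ATP1B3* at the bottom.

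Of the 17 genes with ATPase names, the ATP1B genes included, 11 were called lower, beside 64.5% of all genes. The lipid flippase genes were all among them, and some calcium pump genes were not. The 4 listed flippase genes (P4-ATPases) had a median log2 ratio of −0.60. *ATP9B*, of the trans-Golgi network, had −0.68, and *ATP8B2* and *ATP11A* had −0.64 and −0.57. *ATP11B* had the most control reads of the family and fell from 13146 scaled reads to 9550 and 10645, a log2 ratio of −0.38 (SE 0.15, limma voom adjusted p = 0.0157). Its call was lost with limma trend. The flippase chaperone gene *TMEM30A* had a log2 ratio of −0.31 and was not called (limma voom adjusted p = 0.0531).

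Both copper pumps were called lower, beside 64.5% of all genes, and neither was called relative to the median gene. *ATP7A*, the Menkes disease gene, which moves copper to secreted enzymes and out of the cell, fell from 7521 scaled reads to 4980 and 5191, a log2 ratio of −0.56 (SE 0.15, limma voom adjusted p = 0.000544). *ATP7B*, the Wilson disease gene, had a log2 ratio of −0.42. The copper uptake gene *SLC31A1* had −0.20 and the copper chaperone genes *ATOX1* and *CCS* had −0.25 and −0.10, and none of these 3 was called. *COMMD1*, whose product takes part in copper export with these pumps, was called lower with a log2 ratio of −0.59.

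In the ATP13A family, *ATP13A1*, which removes misplaced proteins from the endoplasmic reticulum membrane, had a log2 ratio of −0.55 and was called lower. So was *ATP13A2*, a lysosomal polyamine exporter, with −0.46. *ATP13A3*, another polyamine transporter, had the most control reads of the family and was not called. It had 8928 scaled reads in the control column and 7199 and 7852 in dIWS1, a log2 ratio of −0.25 (SE 0.15, limma voom adjusted p = 0.123).

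Calcium pumps split in their calls. *ATP2A2* encodes SERCA2, the pump that fills the endoplasmic reticulum in most cells. It had 15320 scaled reads in the control column and 12364 and 14401 in dIWS1, a mean of 13383 ± 1441 (SD, n = 2) and a log2 ratio of −0.20 (SE 0.14) that was not called (limma voom adjusted p = 0.200). *ATP2A3*, the SERCA3 gene of blood cells, had −0.49 and the Golgi pump gene *ATP2C1* had −0.43, and both were called lower. *ATP2B1*, a plasma membrane calcium pump, had 9719 scaled reads in the control column and 7851 and 8702 in dIWS1, a log2 ratio of −0.23 (SE 0.15, limma voom adjusted p = 0.144). The calls differ between *ATP2A2* and *ATP2A3*, but the difference between their changes was not tested.

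The sodium-potassium pump consists of an alpha and a beta subunit. The beta subunit gene *ATP1B3* had 4077 in the control column and 3531 and 3918 in dIWS1, a log2 ratio of −0.13 (SE 0.15, limma voom adjusted p = 0.421). *ATP1B1* had few reads, 139 in the control column and 117 and 137 in dIWS1, and a log2 ratio of −0.13 (SE 0.18, limma voom adjusted p = 0.490). Both genes stood among the 3 members nearest to 0, and each was nearer to the control in column 2 than in column 1. *ATP1B4*, far below them, is named as a beta subunit but does not serve this pump in placental mammals.

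Relative to the median gene, *ATP1B4* was the one member called. Scaled so that the median gene with a mean of at least 100 stood at 0, a shift of 0.41 upward, its log2 ratio was −0.92 (limma voom adjusted p = 2.24e-06). That is 1 of 34 members, beside 5.28% of all genes called below the median gene. No member was called above it, beside 2.59% of all genes, and none was above it at an unadjusted p under 0.05. At that level 5 members were below, and no share of all genes at that level is given. The next lowest were *ABCA3* at −0.36 and *ABCC4* also at −0.36, with limma voom adjusted p-values of 0.0609 and 0.0990. *ABCD3*, *ATP1B3* and *ATP1B1* were highest at 0.29, 0.28 and 0.28. Their limma voom adjusted p-values were 0.242, 0.261 and 0.372.

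The dIWS1 columns differed in a direction shared with other genes. Column 1 gave the lower ratio for 31 of 34 members, and for 7346 of 8900 genes that averaged 100 scaled reads or more. The median of column 1 minus column 2 was −0.09 over the members and −0.12 over those genes. *ABCA3* and *ABCF3* were among the 3 members with the lower ratio in column 2.

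Level and gene structure varied widely among the members. Control reads per kb of RefSeq span ran from 5.33 for *ATP1B1* to 217 for *ATP2A2*. *ABCE1* and *ABCF2* were also high with 166 and 134 reads per kb, and *ABCG2* was next to last with 9.91. The median was 47.5 reads per kb for the members and 40.7 for all genes. These levels come from 1 column and carry no replicate error. They also depend on the RefSeq span taken as length, which can reach beyond the start used, as for *ABCD3*. The span of the members had a median of 46.0 kb beside 27.2 kb for all genes.

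**Figure D3:**
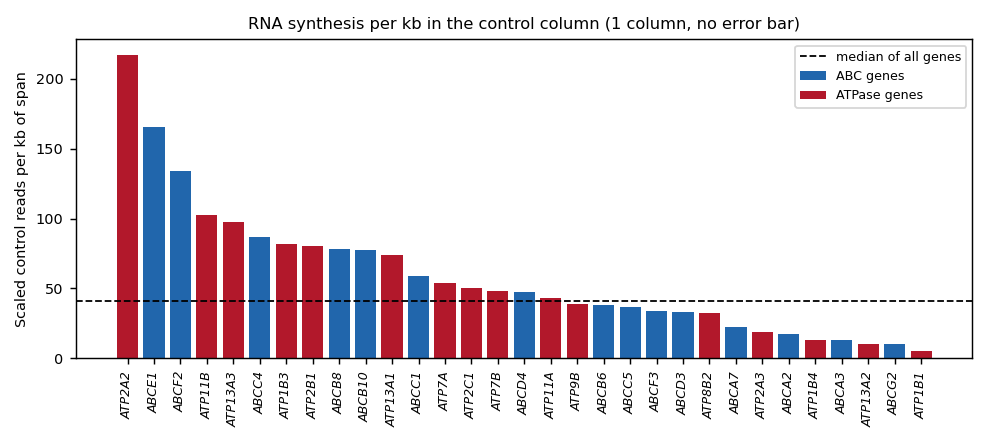
Scaled control reads per kb of RefSeq gene span for 31 of the 34 members, in falling order, with ABC genes in blue and ATPase genes in red. The dashed line is the median of all genes (40.7 reads per kb), and *ATP2A2*, *ABCE1* and *ABCF2* are the highest shown.

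By rank correlation, the size of the fall went with GC content more than with length. Across the 34 members, Spearman's rho of the log2 ratio was −0.53 with the GC content of the gene span, 0.04 with its length and 0.32 with control reads per kb. Across 10088 genes these values were −0.33, −0.01 and 0.14. Genes of one library share its depth and base composition, so these are descriptions, and the part of GC content in the fall was not tested. In the members, length and GC content also went together (rho −0.59). Of the members with a GC content of 50% and over, 12 of 13 were called lower, beside 77.8% of all genes in that class, and *ABCB6* was the one not called. Of those under 40%, 3 of 8 were called lower (*ATP7A*, *ATP2C1* and *ATP11B*), beside 50.4% of all genes there. Between these bounds 9 of 13 were called lower, beside 63.5%. *ATP1B4* had a GC content of 41.9% and so lay far from the members of like composition.

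By span, 11 of 13 members below the median span of all genes (27.2 kb) were called lower, beside 61.6% of all genes of that class. From there to 100 kb 5 of 10 were called, beside 58.0%, and from 100 kb on 8 of 11, beside 89.2%. The median log2 ratios of these classes, from short to long, were −0.43, −0.35 and −0.55 over all genes. Over the members they were −0.53, −0.32 and −0.43. All genes of 100 kb and over thus had the lowest median, which a rho near 0 does not show. *ABCD3* and *ATP2B1* were among the members of 100 kb and over that were not called. Both have a GC content under 40%, as do *ATP7A*, *ATP2C1* and *ATP11B*, which are as long and were called lower.

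**Figure D4:**
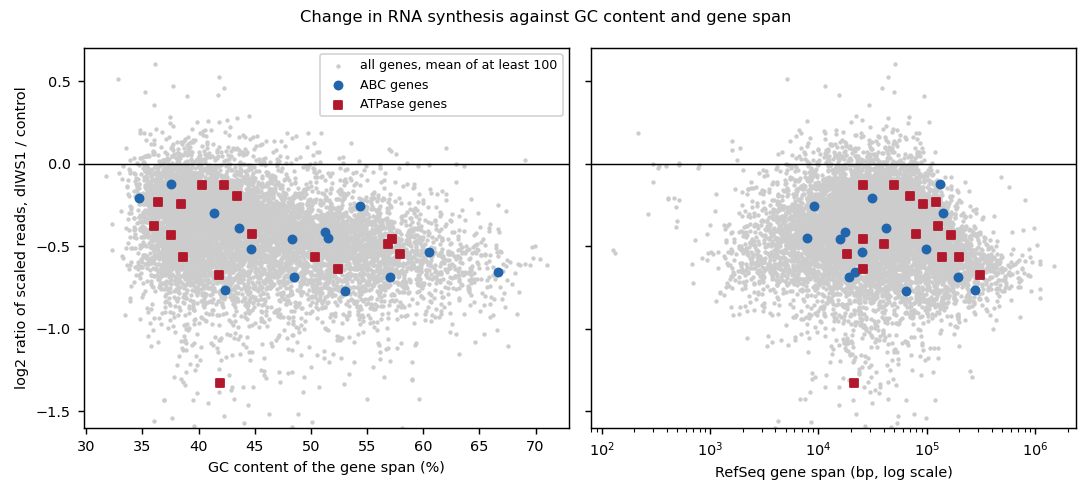
Log2 ratio of scaled reads (dIWS1/control) against the GC content of the gene span (left, percent) and its length (right, bp, log axis), with grey points for all genes with a mean of at least 100, blue circles for ABC genes and red squares for ATPase genes (31 of the 34 members); genes beyond the limits of the vertical axis are not shown. Members fall from upper left to lower right with GC content (rho −0.53 over all 34) and show no such trend with length (rho 0.04 over all 34), and *ATP1B4* is the low point at −1.33.

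Other genes of the same pathways gave a like share called lower under the spike-in scaling. Of 38 partner genes (subunits, chaperones, calcium channels, copper carriers and peroxisome factors), 24 were listed. Of these, 16 were called lower and none higher, at 64.5% of all genes called lower, and their median log2 ratio was −0.38. *RYR1*, a calcium release channel, had the lowest ratio. It fell from 1870 scaled reads in the control column to 949 and 1018, with a log2 ratio of −0.93 (limma voom adjusted p = 1.95e-09). Next were *ORAI3*, a store-operated calcium channel, at −0.87 and *ITPR2*, an inositol trisphosphate receptor, at −0.71. *PEX3*, which inserts peroxisomal membrane proteins such as ABCD3, was highest at 0.01. It had 1007 scaled reads in the control column and 1028 and 996 in dIWS1. *RYR1* was called below the median gene at −0.52 (limma voom adjusted p = 0.00725) and *PEX3* above it at 0.42 (limma voom adjusted p = 0.0294). Of all genes, 5.28% were called below it and 2.59% above it.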

How the data were processed

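TT-seq was measured in 4 samples of edited K562 cells, grouped by the treatment in the labels. Per the methods and processing notes, the authors aligned reads with STAR 2.6.0 to GRCh38 with spike-in sequences, kept unique alignments, counted read pairs per RefSeq gene by strand, removed overlapping genes and weakly expressed ones, and fitted DESeq2 with spike-in size factors. The authors' table gives each gene 1 coverage signal, its reads divided by size factors and averaged over 4 library columns, and the deposited log2 fold change, standard error, score and p-values of their comparison. Those comparison values are not reported here. The log2 fold change served only to split means into reads and to tell dIWS1 from control.

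The smallest means that are no sum of smaller ones gave 3 steps. Each mean of 10136 genes was written as whole multiples of these steps, with the control step entered 2 times. The search was held to control reads near those that the deposited log2 fold change gives. Where several solutions were found, the closest was kept if it was clearly nearer than the next. After this, each gene had 1 solution. The 11 genes with a mean of 0 were left out. Of 400 shifted means, 0 could be split, and in made-up tables with known reads 1454 of 1454 genes were split correctly. Such tables with 2 different control columns gave 4 steps, not 3. The reads carry no replicate numbers.

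Ratios used a pseudocount of 0.5 scaled reads and are on that log2 scale. Calls came from limma 3.58.1 (voom, R 4.3.3), two-sided, with spike-in size factors as library sizes. In data simulated for the dIWS1/control comparison over 10136 genes, voom called 100 of 100 genes changed 2-fold, 96 of 100 changed 1.5-fold and 16 unchanged genes. The simulated control was given the spread of the dIWS1 columns, so these counts do not check that assumption. No shift shared by all genes was simulated. Spans and promoters came from RefSeq (GRCh38.p14), with 9343 genes matched by symbol, 169 by gene number, 576 by synonym and 48 not matched. Exon counts came from the transcript that GENCODE marks as canonical. GC content was computed from the GRCh38 sequence. Python 3.11.15, numpy 2.4.6, pandas 2.3.3, scipy 1.17.1 and matplotlib 3.10.9 were used.

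The members and lists were chosen with earlier results of these data known. Column values in full were given for the 6 members at each end of the log2 ratios, for the member with the most control reads in each family and for members called relative to the median gene. Values of *ABCB10* and the column values of *ABCA2*, *RYR1* and *PEX3* were added after they were seen. Alternatives were other scalings, limma trend, minimum means of 10 and 100, thresholds of 0.01 and 0.1, minimum changes of 0.5 and 1, a pseudocount of 5, the control entered 2 times and each dIWS1 column left out. Protein sequences were not used here. Values of 3 members are counted in the totals and medians but are not reported here.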

Additional observations from a re-analysis of the deposited data

How the results depend on the processing

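No paired analysis was possible because the recovered columns carry no replicate numbers. Leaving out a dIWS1 column leaves 1 column a group, so these are values with no test. The median log2 ratio of the members then ran from −0.52 to −0.42, that of ABCE and ABCF from −0.44 to −0.40, that of ATP2B from −0.31 to −0.16 and that of ATP1B from −0.25 to −0.057. The main fit called 24 members and 6539 genes in all lower. Minimum means of 10 and 100 left 24 members called lower, beside 6510 and 6087 genes in all. Limma trend called 22 of these 24, beside 5598 genes in all. The control entered 2 times called 28, beside 7883 genes in all, with *ABCB6*, *ATP13A3* and *ATP2B1* among the members added. In simulated data that last fit called 660 unchanged genes, against 16 with the control entered once.

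Recentring on the median gene called 1 member lower and moved the counts over all genes to 535 lower and 263 higher. Total reads in genes called 6 members lower and 8 higher (1062 and 1471 genes in all). A minimum change of 0.5 left 14 members and 3755 genes lower and 4 genes higher, and one of 1 left 1 member, 353 genes and 2 genes. Genes called higher numbered 26 with limma trend, 61 with the control entered 2 times, 6 at a threshold of 0.01 and 23 at 0.1. Relative to the median gene, 4 members were below it at a threshold of 0.1. With the control entered 2 times 7 were below it and 2 above it. Counts over all genes relative to the median gene are not given for these settings.

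The median of the members was −0.042 recentred and −0.011 with total reads. Family medians recentred were −0.24 for ABCA, 0.089 for ABCB, −0.28 for ABCC, −0.0039 for ABCD, −0.037 for ABCE and ABCF, 0.11 for ABCG, −0.048 for ATP13A, 0.28 for ATP1B, −0.023 for ATP2A and ATP2C, 0.18 for ATP2B, −0.084 for ATP7 and −0.19 for ATP8, ATP9 and ATP11. With total reads they were −0.22, 0.12, −0.25, 0.024, −0.0053, 0.14, −0.017, 0.31, 0.0062, 0.21, −0.052 and −0.16 in the same order. Members called lower that changed sign were *ABCB10* (0.023), *ATP11B* (0.030) and *ABCG2* (0.11) when recentred. With total reads they were the same 3 genes (0.054, 0.059 and 0.14) and *ATP2C1* (0.0062), *ATP7B* (0.019) and *ABCD4* (0.024). These shifts are those of the scalings themselves.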
